A study of Mus musculus with 20 samples.

Results

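MHC class II antigen presentation was followed through 7 genes in the intervertebral disc of aged mice: the chains H2-Aa, H2-Ab1 and H2-Eb1, the invariant chain Cd74, the peptide-exchange chains H2-DMa and H2-DMb1, and the transactivator Ciita. They were taken by symbol from a deposited table of 51789 genes, and all 7 were found. All 7 also passed the filter on low values that left 16383 genes for testing. Ciita passed it through the annulus alone, so that its tissue difference was partly fixed by the filter.

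The 20 libraries came from BL6 mice killed at 24 months of age, whose discs were dissected under a microscope into nucleus pulposus (NP, the gelatinous core) and annulus fibrosus (AF, the fibrous ring). From 18 months of age, for 6 months, the mice received intraperitoneal injections of DMSO (the vehicle) or of MDL-800 in the same amount of DMSO. MDL-800 is a small-molecule activator of SIRT6, a chromatin deacylase, and DMSO was common to all animals. Each tissue was taken under vehicle and under MDL-800, which makes 4 groups of 5 libraries, and libraries are named here by the number in their sample title. The sex of the mice, the dose and whether each library stands for a separate animal are not given in the sources used here, so p-values measure the spread between these libraries. The titles speak of cells and the protocol of dissected tissue, and the values below were read as those of whole tissue.

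MHC class II molecules are pairs of an alpha and a beta chain that show peptides from endosomes to CD4 T cells. The new pair is held by the invariant chain, which is cut down by cathepsins until a short fragment is left in the groove, and the H2-DM pair then exchanges that fragment for peptide. Macrophages, dendritic cells and B cells make these genes constitutively, and many other cell types make them under interferon gamma, in each case through CIITA, a coactivator that docks on factors bound to the X and Y boxes of their promoters. In mice, H2-Aa and H2-Ab1 form the I-A molecule. H2-Eb1 is the beta chain of I-E, whose alpha-chain gene is defective in mice of the b haplotype such as C57BL/6.

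The X and Y boxes were looked for in RefSeq promoters (GRCm38.p6, from 250 bases before to 50 after the start), which were found for 4 of the 7 genes. The letters searched were GNAAC, a core of the X box, followed after 15 to 40 bases by TGATTGG, the Y box, on both strands and without overlap. They were chosen after the promoters had been seen. H2-Aa, H2-Eb1 and H2-DMb1 held the pair, and the 2 promoters of H2-DMa did not. The stretches are shown, 5′ to 3′ along the gene's strand with GNAAC and TGATTGG in capitals. Whether they bear on the tissue contrasts given below was not tested. H2-Ob, a chain of the H2-O pair that inhibits H2-DM, is added for comparison.

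H2-Aa, chr17:34287861-34287912, minus strand: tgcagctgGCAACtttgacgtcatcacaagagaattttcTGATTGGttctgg

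H2-Eb1, chr17:34305768-34305818, plus strand: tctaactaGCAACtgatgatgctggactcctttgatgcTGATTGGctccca

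H2-DMb1, chr17:34153089-34153140, plus strand: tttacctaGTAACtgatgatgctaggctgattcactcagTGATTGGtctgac

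H2-Ob, chr17:34238810-34238858, plus strand: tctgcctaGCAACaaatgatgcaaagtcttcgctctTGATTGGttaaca

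The pair is 26 bases apart in H2-Aa, 25 in H2-Eb1, 26 in H2-DMb1 and 23 in H2-Ob, and the first base of GNAAC lies 81, 91, 94 and 87 bases before the RefSeq start. For H2-DMb1 that start lies inside the GENCODE span given next, which begins further upstream. H2-Oa and H2-Eb2 held the pair too, and H2-DMb2 did not. Of all 32851 RefSeq promoters of this length, 235 (0.715%) held both in this order. GNAAC alone was in 84.8% of them and TGATTGG in 7.82%.

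By the GENCODE M21 annotation (GRCm38), H2-Aa spans chr17:34282744-34287823 on the minus strand. On the plus strand of the same chromosome lie H2-Ab1 (chr17:34257689-34269419), H2-Eb1 (chr17:34305867-34316674), H2-DMa (chr17:34119541-34139101) and H2-DMb1 (chr17:34153072-34160230). Ciita spans chr16:10480059-10528418 on the plus strand, and Cd74 lies on chromosome 18. The kit marked strand, but whether strand was used to assign reads is not given in the sources used here. H2-Eb1, H2-DMa and Ciita overlap genes of the opposite strand. Gm20513 at H2-Eb1 did not exceed 0.157 FPKM in any library. H2-DMa overlaps Brd2, Gm20493 and CR974462.4, and Ciita overlaps Dexi. The levels of these genes are not given here, so the low NP values of H2-DMa and Ciita are uncertain in this respect. H2-DMb1 and its near copy H2-DMb2 could share reads, so both are uncertain.

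Values are FPKM (fragments per kilobase of transcript, relative to all fragments of the library), scaled to each library by factors of 0.933 to 1.062, and differences are of log2(scaled FPKM + 1), which understates the change of low genes. A gene was called higher or lower at an adjusted p under 0.05 by limma. Depth, read from the steps between low values, came to between 12.3 and 21.5 megafragments assigned to genes in a library. Of the 7 tested markers of NP, all 7 were higher in NP of vehicle mice, among them T (brachyury, 1399 against 304 FPKM), while Noto was near 0 everywhere. Of 7 AF markers, 6 were lower in NP, and Fmod was not called. Under quantile normalization Fmod was called higher and Scx lost its call.

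NP and AF of vehicle mice differed in every one of the 7 genes. All were lower in NP, and in none did the 5 NP libraries reach the lowest AF library. By the ratio of means AF stood 3.47-fold (H2-DMb1) to 23.5-fold (H2-Aa) above NP. Among all genes tested, 33.9% were called lower in NP and 25.9% lay wholly below AF, so a lower value in NP is common in these data. A further 21.8% were called higher. The median difference of the 7 genes was -2.92, against -0.08 over all genes.

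The classical chains came first. H2-Aa, the I-A alpha chain, was listed in NP vehicle libraries 1, 2, 3, 5 and 6 at 4.48, 5.42, 5.57, 4.90 and 26.8 FPKM. In AF vehicle libraries 8, 9, 10, 12 and 13 it stood at 153.5, 192, 163, 337 and 260.4 FPKM. Library 6 was the high one in NP and library 12 in AF, yet even library 6 was far below every AF library. The means were 9.43 ± 9.71 and 221 ± 77.1 FPKM (SD, n = 5), and the difference was -4.69 (SE 0.43, limma adjusted p = 1.35e-05). H2-Eb1 followed the same course, from 2.75 to 14.7 FPKM in NP and from 101 to 197 in AF, a difference of -4.46 (SE 0.37, limma adjusted p = 8.56e-06).

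H2-Ab1, the I-A beta chain, did not fall as far. It stood at 24.2, 28.05, 28.1, 26.0 and 38.4 FPKM in the 5 NP libraries and at 118, 135, 113.5, 247 and 176 in the 5 AF libraries. Its difference was -2.36 (SE 0.21, limma adjusted p = 1.28e-05), with means of 29.0 ± 5.52 and 158 ± 55.5 FPKM (SD, n = 5). Library 6 was the highest in NP for both I-A chains, and the other 4 held H2-Aa between 4.48 and 5.57 FPKM and H2-Ab1 between 24.2 and 28.1. The correlation of both chains over the 10 NP libraries, after group means were taken off, was r = 0.869.

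Cd74, the invariant chain, had the highest FPKM of the 7 in AF. It stood at 398, 466, 402, 557 and 584 FPKM there and at 8.13, 11.2, 18.8, 10.1 and 62.2 in NP. The difference was -4.78 (SE 0.45, limma adjusted p = 1.59e-05), the widest of the 7 on this scale.

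The H2-DM pair differed less. H2-DMa had 2.52 ± 1.71 FPKM in NP and 24.0 ± 6.11 in AF (SD, n = 5), which differed by -2.92 (SE 0.30, limma adjusted p = 2.57e-05). H2-DMb1 had 5.89 ± 2.18 FPKM in NP and 20.4 ± 4.52 in AF, a difference of -1.66 (SE 0.22, limma adjusted p = 0.000103). H2-DMa was 9.54-fold and H2-DMb1 3.47-fold higher in AF by the ratio of means.

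Ciita, the transactivator, was the lowest of the 7 in every group. In NP it was listed at 0, 0.103, 0.0405, 0.0690 and 0.395 FPKM, the last again in library 6. In AF it stood at 1.16, 1.85, 1.22, 2.13 and 2.96 FPKM, all above NP. The difference of -1.33 (SE 0.18, limma adjusted p = 0.000143) is small on this scale because the values are low, and the AF mean was 15.3-fold the NP mean.

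**Figure D1:**
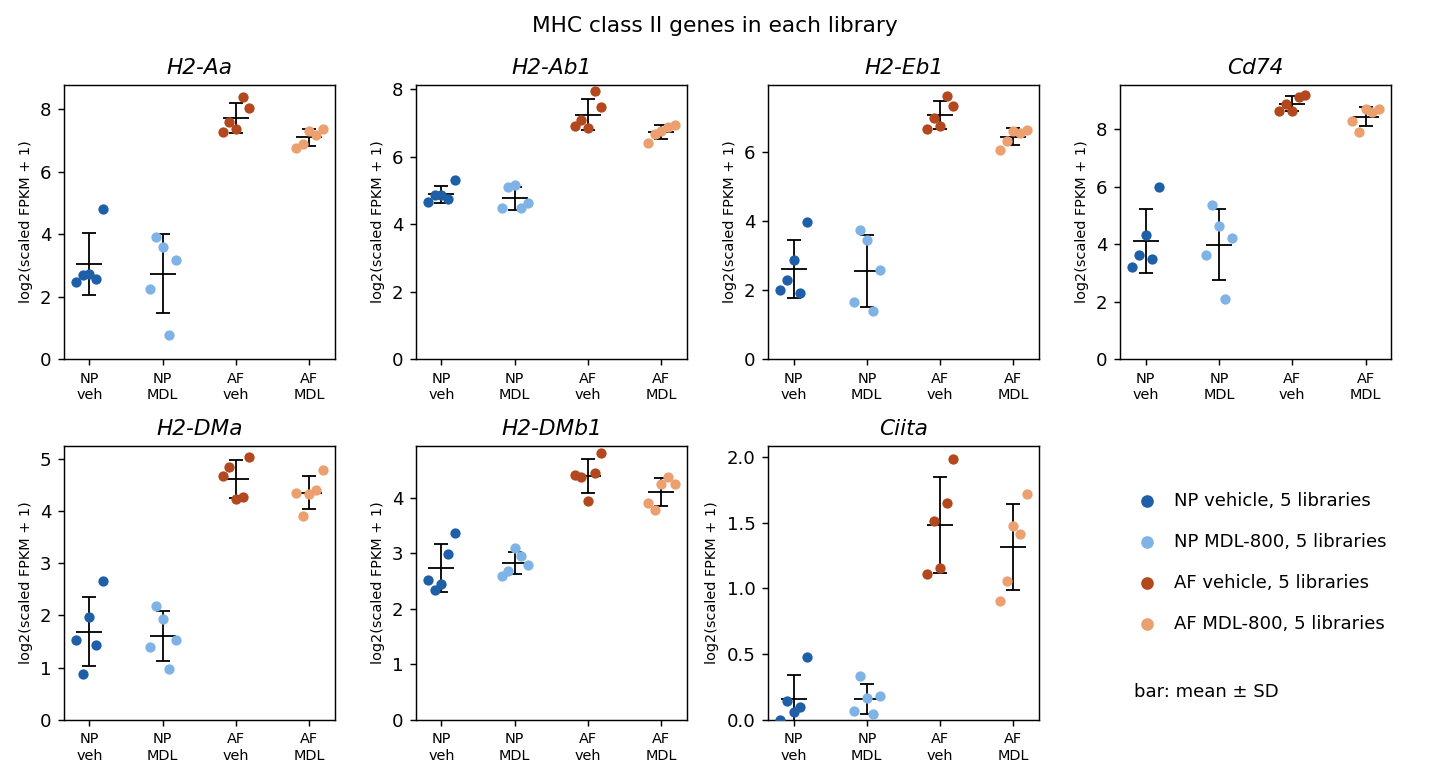
Level of the 7 MHC class II genes in each library, as log2(scaled FPKM + 1) on the vertical axis, by tissue and treatment (5 libraries a group, bars mean ± SD). NP lies below AF in every panel without overlap, and the ratio of means between AF and NP is smallest for H2-Ab1 (5.46 in vehicle) and H2-DMb1 (3.47).

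The MDL-800 animals gave the same tissue order in separate libraries. All 7 genes were again lower in NP and none overlapped (37.2% of all genes were called lower and 25.6% higher, and 30.5% lay wholly below AF). The differences were -4.36 for H2-Aa, -3.88 for H2-Eb1 and -4.46 for Cd74. They were -1.96 for H2-Ab1, -2.74 for H2-DMa, -1.29 for H2-DMb1 and -1.15 for Ciita. Limma adjusted p-values ran from 4.07e-06 to 0.000102. As in vehicle mice, H2-Aa, H2-Eb1 and Cd74 had the widest differences, and H2-Ab1, H2-DMb1 and Ciita the narrowest on this scale. By the ratio of means Ciita (15.3 in vehicle, 12.8 under MDL-800) stood above H2-DMa (9.54 and 9.09), H2-Ab1 and H2-DMb1.

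The order of the levels in FPKM also differed by tissue. Within a tissue that order depends on the transcript lengths used for FPKM, which are not given in the sources used here. In both AF groups the medians ran from Cd74 through H2-Aa, H2-Ab1, H2-Eb1, H2-DMa and H2-DMb1 to Ciita. H2-Aa and H2-Ab1, H2-Ab1 and H2-Eb1, and H2-DMa and H2-DMb1 overlapped in range, while the steps from Cd74 to H2-Aa, from H2-Eb1 to H2-DMa and from H2-DMb1 to Ciita did not. In both NP groups H2-Ab1 came first, followed by Cd74, H2-Aa, H2-DMb1, H2-Eb1, H2-DMa and Ciita. There, neighbours overlapped except H2-DMa and Ciita.

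The balance within the pairs was therefore compared, as ratios chosen after the values had been seen. The p-values of both ratios do not allow for that choice. Their direction between the tissues was already set by the differences of the single genes given above. H2-Ab1 over H2-Aa was 5.41, 5.18, 5.05, 5.31 and 1.43 in the NP vehicle libraries and 0.771, 0.704, 0.697, 0.733 and 0.678 in the AF vehicle libraries. In FPKM, H2-Ab1 thus exceeded its partner in every NP library and was below it in every AF library. Which chain is higher depends on the transcript lengths used for FPKM, which are not given in the sources used here. By GENCODE M21 the joined exons hold 3798 bases for H2-Aa and 2568 for H2-Ab1. With a fixed length for each gene, the shift of the ratio between tissues does not depend on these lengths. The log2 ratio was 2.50 higher in NP (exact permutation test, two-sided, p = 0.0079, the smallest that 5 against 5 allows, and 0.0159 adjusted over 8 ratio tests). In MDL-800 animals it was 2.75 higher in NP (exact permutation p = 0.0079, adjusted 0.0159). NP values ran from 2.38 to 30.7, the highest in library 20, where H2-Aa was 0.688 FPKM and H2-Ab1 21.1.

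H2-DMb1 over H2-DMa showed the same direction. It was 2.96 ± 1.47 in NP and 0.867 ± 0.163 in AF of vehicle mice, and 3.47 ± 2.05 and 0.850 ± 0.139 under MDL-800 (SD, n = 5). The groups did not overlap, and the log2 ratio was 1.64 and 1.87 higher in NP (exact permutation p = 0.0079 in each, adjusted 0.0159). Neither ratio passed the test between treatments in either tissue (exact permutation p from 0.119 to 0.857).

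**Figure D2:**
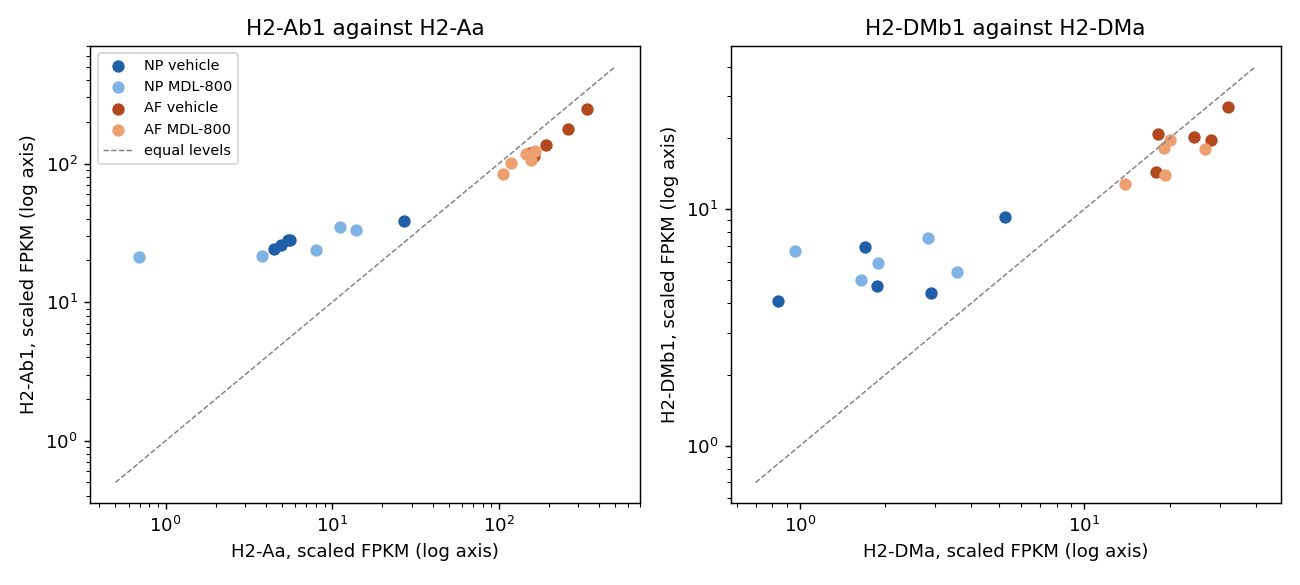
H2-Ab1 against H2-Aa and H2-DMb1 against H2-DMa in the 20 libraries, in scaled FPKM on log axes, with a dashed line of equal FPKM. The place of that line depends on the transcript lengths used for FPKM. NP libraries lie above the line in both panels, and H2-Ab1 stays between 21.1 and 38.4 FPKM while H2-Aa in NP runs from 0.688 to 26.8.

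Markers of leukocytes, macrophages, B cells and T cells were mostly lower in NP, while those of dendritic cells were divided. In bulk tissue, fewer cells of a type and less RNA per cell cannot be told apart. The summed level of 6 pan-leukocyte genes (Ptprc, Coro1a, Laptm5, Cd53, Cd37 and Cd52) was 17.6 to 168 FPKM in NP vehicle libraries and 412 to 1015 in AF vehicle libraries, and 10.8 to 88.7 and 418 to 1243 under MDL-800. All 6 were called lower in NP in vehicle mice (median -3.86). Of 12 macrophage markers 11 were lower, of 9 B cell markers 9 and of 10 T cell markers 10, with medians of -3.02, -2.40 and -1.67. Their summed levels in NP and AF of vehicle mice were 73.3 to 406 and 1446 to 2750 FPKM for macrophages, 3.65 to 15.4 and 49.8 to 114 for B cells, and 2.50 to 9.30 and 21.1 to 158 for T cells. No defining macrophage marker was at 0 in any NP library, although Adgre1, which encodes F4/80, was low there, at 0.248 to 2.82 FPKM against 8.72 to 22.0 in AF. Of 7 dendritic cell markers tested, Zbtb46 was higher in NP (1.34) and Bst2 was not called (-0.45, limma adjusted p = 0.0846). The 5 that were lower there (Flt3, Cd209a, Itgax, Ccr7 and Siglech) reached 1 FPKM in no NP library, so that they were tested through AF alone and could hardly differ the other way. Clec9a, Cd209a, Batf3 and Ccr7 were at 0 in some NP vehicle library. Quantile normalization ended the calls of Cd163, a macrophage marker, and of the T cell markers Cd3d and Cd8a. All tested markers of other tissues next to the disc were lower in NP too: 8 of 8 for neutrophils, 5 of 5 for red cells, 6 of 6 for endothelium, 5 of 5 for bone and 4 of 4 for skeletal muscle. These counts were partly fixed by the filter, since 4 of the endothelial, 3 of the bone, 4 of the T cell, 1 of the B cell and 1 of the macrophage markers were under 1 FPKM in every NP library. The part of any of these cells and tissues in the class II difference was not tested.

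Levels were also set per 100 FPKM of leukocyte genes. H2-Aa had 6.81 to 30.7 FPKM in NP and 15.2 to 51.8 in AF of vehicle mice, and Cd74 had 12.4 to 98.05 and 39.3 to 97.7, so that both overlapped. H2-DMb1 had 5.52 to 24.7 in NP and 2.00 to 3.49 in AF, without overlap. H2-Ab1 had 22.9 to 159 in NP and 11.7 to 37.9 in AF, with 3 of the 5 NP libraries above all of AF. H2-Eb1 (4.61 to 32.5 in NP, 9.98 to 30.3 in AF), H2-DMa (2.83 to 15.1 and 2.40 to 4.33) and Ciita (0 to 0.585 and 0.115 to 0.327) overlapped. Under MDL-800 both H2-Ab1 (30.8 to 196.5 in NP, 9.87 to 24.0 in AF) and H2-DMb1 (6.11 to 62.2 and 1.45 to 3.85) lay wholly above AF, and the other 5 genes overlapped. These shares were set after the values had been seen and carry no test.

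**Figure D3:**
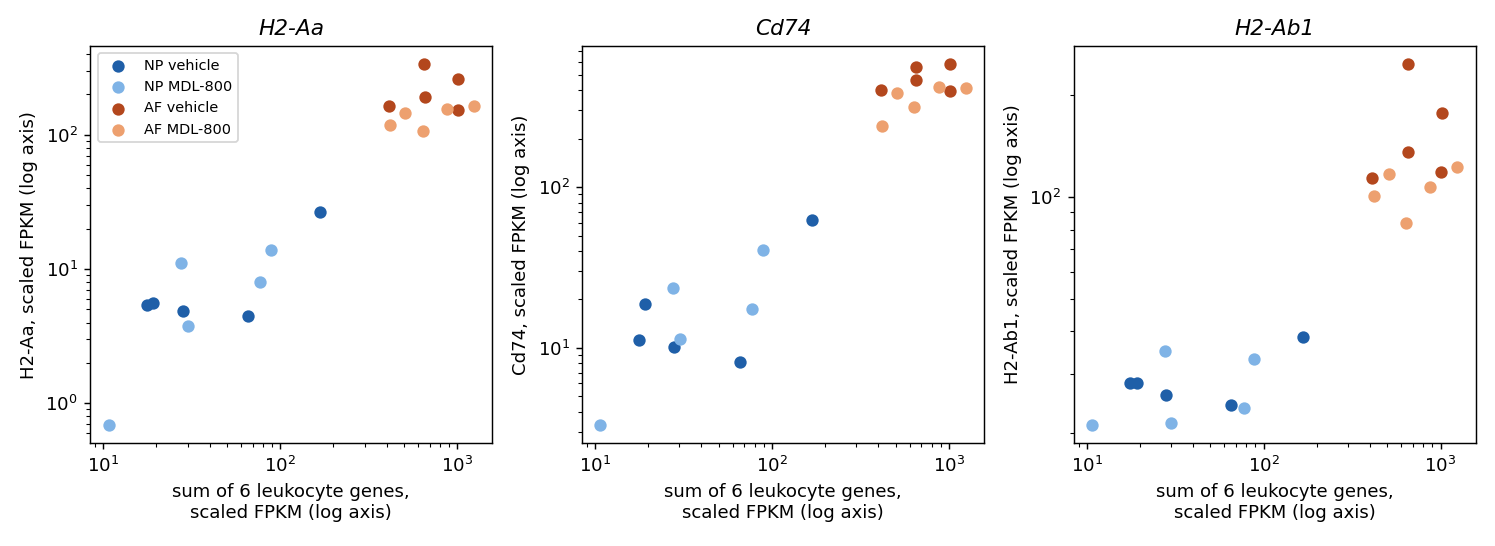
H2-Aa, Cd74 and H2-Ab1 against the summed level of 6 leukocyte genes in the 20 libraries, in scaled FPKM on log axes. H2-Aa and Cd74 in NP span from 0.688 to 26.8 and from 3.30 to 62.2 FPKM across these sums, and H2-Ab1 in NP spans from 21.1 to 38.4.

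Of the other class II genes, 3 were tested, and H2-Oa and H2-Ob reached 1 FPKM in no NP library, so that they were tested through AF alone and their direction was partly fixed by the filter. H2-Ob had 0.332 ± 0.141 FPKM in NP and 4.07 ± 2.15 in AF of vehicle mice (SD, n = 5), which differed by -1.85. H2-Oa, its partner, differed by -1.40, and H2-DMb2 by -2.25. All 3 were called lower in both treatments. H2-Eb2 was low in all groups, with a mean of 0.0524 FPKM in NP and 0.660 in AF of vehicle mice, and was not tested. H2-Ea-ps, the I-E alpha locus, and H2-Pa were listed at 0 in all 20 libraries, while H2-Eb1 reached 197 FPKM in AF.

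Regulators of the class II genes were partly lower in NP. Of 15 tested, 10 were lower in NP of vehicle mice and none was higher, with a median of -0.78. The interferon-gamma receptor genes Ifngr1 (-1.42) and Ifngr2 (-1.28), the kinase genes Jak1 (-0.98) and Jak2 (-0.78), and Irf8 (-3.13), a myeloid and B cell factor, were among them. Irf1, an interferon-induced factor, and Creb1, an X box binding factor, were not called in vehicle mice (-0.33 each, limma adjusted p = 0.218 and 0.0784). Nor were the genes of the RFX complex, which binds the X box. Rfx5 had 10.2 ± 1.54 FPKM in NP and 8.58 ± 1.07 in AF (limma adjusted p = 0.15), Rfxank 9.34 ± 1.14 and 9.49 ± 1.85 (limma adjusted p = 0.973) and Rfxap 8.87 ± 1.11 and 10.9 ± 0.916 (SD, n = 5, limma adjusted p = 0.0533). Under MDL-800, 12 of the 15 were lower and none higher. Creb1 (-0.61, limma adjusted p = 0.00074) and Irf1 (-0.34, limma adjusted p = 0.0476) were among the lower ones there. The RFX genes again were not called. Quantile normalization, which moved the median of all genes from -0.08 to 0.19, turned the signs of Rfxank and Rfxap in vehicle mice. It called Rfx5 higher in NP in vehicle mice, and Rfx5 and Rfxank under MDL-800. It left 9 of the 15 called lower in vehicle mice and 10 under MDL-800, where Irf1 was among the calls lost.

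Endosomal processing genes were lower in NP in 8 of 10 cases, but mostly by little (median -0.65). Ctss, cathepsin S, the protease of the last steps of invariant chain cleavage, stood apart with 7.67 ± 7.55 FPKM in NP and 172 ± 76.0 in AF (SD, n = 5), which differed by -4.54 (SE 0.45, limma adjusted p = 2.17e-05). Ifi30, the endosomal thiol reductase, was lower too, at 17.8 ± 4.19 against 74.6 ± 18.2 FPKM, as were cathepsin H (Ctsh, -1.45) and cystatin C (Cst3, -1.44), a cathepsin inhibitor. Sppl2a, the protease that clears the remaining fragment of CD74 from the membrane, was higher in NP, at 62.4 ± 8.51 against 45.4 ± 4.56 FPKM (0.44, limma adjusted p = 0.00725). Under MDL-800, 7 of 10 were lower and Sppl2a was again higher (0.37).

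Costimulatory genes were partly lower in NP. Cd86 (-1.85), Icosl (-1.80), Cd83 (-1.89) and Cd40 (-1.44) were lower in NP of vehicle mice, 4 of 6 tested with none higher, and the same 4 were lower under MDL-800. Cd86 and Cd40 were under 1 FPKM in every NP library and were tested through AF alone. Cd80 was not called in either treatment (-0.15 in vehicle, limma adjusted p = 0.665, and 0.17 under MDL-800), though quantile normalization called it higher under MDL-800. Cd274, which encodes the inhibitory ligand PD-L1, was not called in vehicle mice (0.51, limma adjusted p = 0.266) and was higher in NP under MDL-800 (0.90, limma adjusted p = 5.45e-05). In vehicle mice its AF values were 4.01 to 6.50 FPKM in 4 libraries and 22.3 in library 12, and its NP values 8.21 to 12.9.

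The class I pathway shows peptides from the cytosol. Of its 16 genes, 12 were lower in NP of vehicle mice and none was higher, with a median of -1.45. H2-Q4 (-2.23), H2-D1 (-2.03), Tap1 (-1.70), the light chain B2m (-1.64), H2-K1 (-1.56) and H2-T23 (-1.46) had the smallest p-values. B2m was still at 375 ± 90.8 FPKM in NP, against 1172 ± 303 in AF (SD, n = 5). Under MDL-800, 11 were lower and Tapbp, the peptide-loading chaperone tapasin, was higher (0.41). None of these counts was tested against that of the class II genes.

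**Figure D4:**
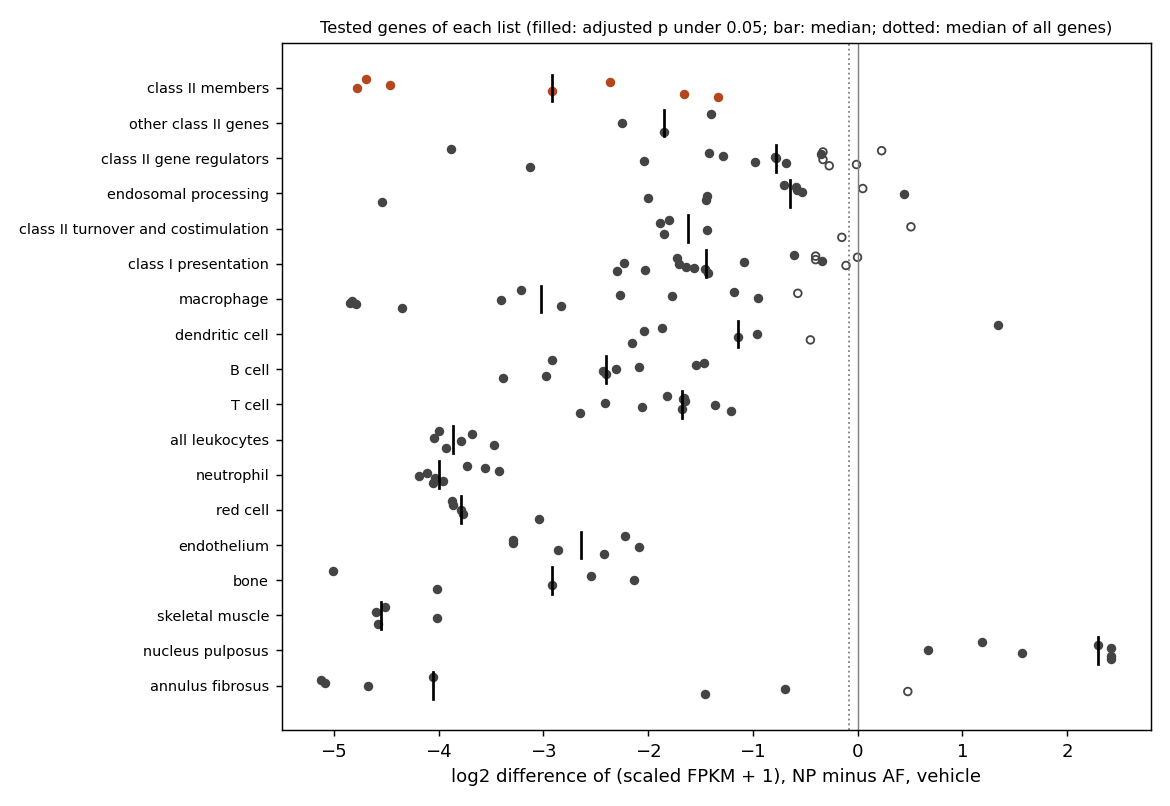
Differences between NP and AF of vehicle mice, as NP minus AF of log2(scaled FPKM + 1), for the 7 class II genes and each list of related or marker genes (1 point a gene, filled where the limma adjusted p is under 0.05). The class II genes run from -4.78 to -1.33, within the span of the macrophage markers, and their median of -2.92 lies well below the -0.08 of all genes.

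In NP, no member of the 7 was called between MDL-800 and vehicle. H2-Aa stood at 3.78, 13.9, 11.1, 0.688 and 8.02 FPKM in MDL-800 libraries 15, 18, 19, 20 and 22, which spanned the vehicle libraries on both sides except library 6. H2-Ab1 stood at 21.4, 33.0, 34.9, 21.1 and 23.7 FPKM, with a mean of 26.8 ± 6.62 against 29.0 ± 5.52 in vehicle (SD, n = 5). The groups overlapped for all 7 genes, where 4.5% of all genes did not overlap. Differences were -0.31 for H2-Aa, -0.12 for H2-Ab1, -0.05 for H2-Eb1, -0.13 for Cd74, -0.08 for H2-DMa, 0.09 for H2-DMb1 and 0.0045 for Ciita, with SEs from 0.10 to 0.65. Limma adjusted p-values ran from 0.807 to 0.991. Of all genes 0.25% were called in this comparison, and 14.1% had an unadjusted p under 0.05, a mark that 0 of the 7 reached. The limma 95% interval was -1.70 to 1.08 for H2-Aa and -1.56 to 1.31 for Cd74, and narrower for H2-Ab1, at -0.50 to 0.25. The signs are set by single libraries: without vehicle library 6, H2-Aa, H2-Eb1, Cd74 and H2-DMa turned positive (0.13, 0.29, 0.34 and 0.16), and so they did without MDL-800 library 20 (0.19, 0.25, 0.34 and 0.08).

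In AF, all 7 genes had lower estimates under MDL-800, and none passed the test across all genes. H2-Eb1 was 101, 124, 107, 197 and 160 FPKM in vehicle libraries 8, 9, 10, 12 and 13, and 66.0, 79.5, 97.1, 93.3 and 98.3 in MDL-800 libraries 25, 27, 28, 29 and 30. All MDL-800 libraries lay below all vehicle libraries (0.0977% of all genes), though the gap was narrow, from 98.3 to 101. The difference was -0.63 (SE 0.20, limma unadjusted p = 0.00933, adjusted p = 1). No gene of the 16383 was called in this comparison (0%), and 1.65% had an unadjusted p under 0.05.

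H2-Aa had 106, 118, 156, 145 and 165 FPKM under MDL-800 against 153.5 to 337 in vehicle, so that the groups overlapped. Its difference was -0.63 (SE 0.23, limma unadjusted p = 0.0191, adjusted p = 1). H2-Ab1 had 106 ± 15.1 FPKM against 158 ± 55.5 (SD, n = 5), a difference of -0.52 (SE 0.21, limma unadjusted p = 0.0333). Cd74 had 354 ± 76.7 against 481.5 ± 86.3 FPKM, a difference of -0.45 (SE 0.19, limma unadjusted p = 0.0385). H2-DMa (-0.26), H2-DMb1 (-0.28) and Ciita (-0.17) had unadjusted p-values from 0.127 to 0.439 by limma. In all, 4 of the 7 had an unadjusted p under 0.05 and 0 were called. These 4 are not separate observations. Over the AF libraries, after group means were taken off, H2-Aa correlated with H2-Eb1 at r = 0.992 and with H2-Ab1 at r = 0.967. With a spread estimated over all 4 groups, 1 of the 7 had an unadjusted p under 0.05.

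Vehicle library 12 carried the highest H2-Aa, H2-Ab1 and H2-Eb1 of AF, and it stood apart in other genes. Its summed T cell markers were at 158 FPKM, against 21.1 to 41.5 in the other 9 AF libraries. Trac, the T cell receptor alpha constant gene, was at 52.9 FPKM there and at 2.51 to 7.03 in the others. Ifng, the interferon that induces CIITA, was at 8.87 FPKM in that library and at most 0.292 in each of the other 19. Ciita was at 2.13 FPKM there, below vehicle library 13 (2.96) and MDL-800 library 30 (2.29). Cd74, at 557 FPKM, was below library 13 (584) too. The part of Ifng in the class II values was not tested. The T cell genes and Ifng were looked at after their values had been seen. Without library 12 the differences were -0.46 for H2-Aa, -0.35 for H2-Ab1, -0.49 for H2-Eb1 and -0.40 for Cd74, with limma unadjusted p-values of 0.0392, 0.0621, 0.0187 and 0.0841, and 2 of the 7 had an unadjusted p under 0.05. The number was also 2 without vehicle library 13 and when MDL-800 library 25 or 27 was left out.

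Other lists in AF, again with no gene called, are given as estimates. Of 10 T cell markers 10 had a negative difference under MDL-800 (median -0.43), as had 11 of 12 macrophage markers (-0.25) and 13 of 16 class I genes (-0.19), against a median of 0.01 over all genes. Without library 12 the T cell count was 7 of 10 (median -0.14) and Trac went from -0.88 to -0.24, while macrophage markers were at 11 of 12 (-0.22) and class I genes at 15 of 16 (-0.14). Ctss had means of 172 ± 76.0 and 104 ± 15.3 FPKM (SD, n = 5), the latter under MDL-800, a difference of -0.64 (SE 0.26, limma unadjusted p = 0.0325, adjusted p = 1), and of -0.42 without library 12 (limma unadjusted p = 0.0572). The leukocyte sums overlapped, at 412 to 1015 and 418 to 1243 FPKM, and B cell markers had a median of -0.05, or -0.30 without library 12. The other class II genes, 3 of 3, had positive differences, from 0.09 to 0.27, and 2 of 3 without library 12. All 5 bone markers had positive differences as well (median 0.72, or 0.46 without library 12). So had 8 of 8 neutrophil, 5 of 5 red cell and 6 of 6 endothelial markers. Without library 12 these 3 counts were 4 of 8, 3 of 5 and 4 of 6. Bglap, osteocalcin, had means of 263 ± 118 FPKM without and 731 ± 318 FPKM with MDL-800. The part of any of these in the class II values was not tested.

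**Figure D5:**
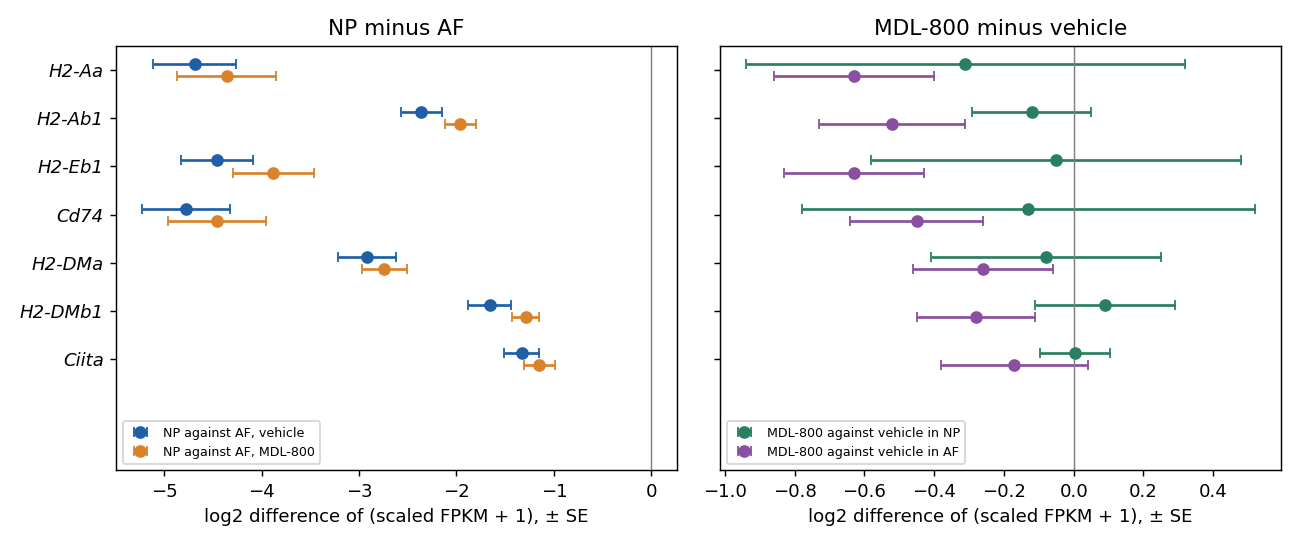
Differences of the 7 genes, ± SE, on the log2(scaled FPKM + 1) scale: NP minus AF in each treatment (left) and MDL-800 minus vehicle in each tissue (right). All tissue differences lie below -1, while treatment differences lie between -0.63 and 0.09, those of H2-Aa, H2-Eb1 and Cd74 in NP with the widest errors.

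The treatment effect was not shown to differ between the tissues. The effect in NP minus that in AF was 0.58 (SE 0.59) for H2-Eb1, 0.40 (SE 0.28) for H2-Ab1 and 0.37 (SE 0.27) for H2-DMb1. For H2-Aa, Cd74, H2-DMa and Ciita it was 0.32, 0.33, 0.18 and 0.17. None of the 7 was called (limma adjusted p = 1 for each), nor was any of all genes (0%), of which 3.73% had an unadjusted p under 0.05. None of the 7 reached that mark, and 1 did without NP vehicle library 6.

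Within groups, most of the 7 genes varied together from library to library. After the mean of each group was taken off, H2-Aa correlated with Cd74 at r = 0.955 and with H2-Eb1 at r = 0.934 over the 20 libraries, which share tissue makeup and depth among their genes. Over the 20 libraries H2-DMb1 was the loosest, with r = 0.512 to the mean of the other 6, where the others had 0.653 to 0.931. In the 10 NP libraries its r was 0.436, and -0.069 without library 6. In the 10 AF libraries it was 0.81, and H2-DMa was the loosest there, at 0.405, or 0.782 without library 12. Ciita followed the mean of the other 6 at r = 0.938 in AF and 0.874 in NP.

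The genes most like the mean of H2-Aa, H2-Ab1, H2-Eb1 and Cd74 in these deviations were sought among 13444 others over the same 20 libraries, by Pearson's r. C1qb, a complement chain made by macrophages, came first at r = 0.84, followed by H2-Q5 (0.833), Ly86 (0.825), Ctss (0.821), C1qa (0.804) and Fcgr2b (0.8). No gene reached 0.9 over the 20 libraries, and the median over all genes was 0.038. In NP alone C1qb, H2-Q5 and C1qa had 0.886, 0.87 and 0.881. In AF alone they had 0.535, 0.561 and 0.297, or 0.27, 0.249 and 0.211 without library 12. Ly86, Ctss and Fcgr2b had 0.766 to 0.775 in AF, or 0.546 to 0.711 without library 12. Among the marker lists, the mean of 12 macrophage genes had r = 0.825 with the mean of these 4 class II genes in NP (0.716 without library 6) and 0.52 in AF (0.436 without library 12). B cell markers had 0.84 in NP (0.726 without library 6) and -0.295 in AF, the latter turning to 0.474 without library 12. T cell markers had 0.784 in NP (0.619 without library 6) and 0.801 in AF (0.643 without library 12). Of lists of other cells, NP had 0.856 for endothelium (0.845 without library 6) and 0.765 for bone (0.729). AF had 0.046 for endothelium and -0.347 for bone, which became 0.525 and 0.214 without library 12. The highest r of any list in NP was that of the class I genes, 0.908 (0.861 without library 6).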

How the data were processed

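RNA was measured in 20 stranded libraries of ribosome-depleted total RNA, each from 50 ng amplified over 14 PCR cycles, per the labels' protocols. The authors deposited FPKM values, rounded to 2 decimals, in a table of 51789 genes. Reads were processed with STAR 2.7.11b and mm10, per the submitters' processing notes. The program that computed FPKM and its annotation are not given in the sources used here.

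Libraries were first scaled by median ratios, taken over the 11308 genes that reach 1 FPKM in every library. Genes reaching 1 FPKM in 5 or more libraries were tested on log2(scaled FPKM + 1), with limma 3.58.1 in R 4.3.3 (lmFit, eBayes with a mean-variance trend, 2 groups a fit), two-sided, with Benjamini-Hochberg adjustment over all 16383 genes. The treatment effects of the tissues were compared in a fit of all 4 groups. Ratios were compared by exact permutation of 252 splits (scipy 1.17.1). No count model was used.

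Depth was read from 6791 single-exon genes, 400 to 1200 bases long, whose low values form steps: 83.1% to 87.7% lay within 0.2 of a whole number of reads (40% by chance). Its precision limits low genes such as Ciita most. The limma fits were tested on simulated data first. Columns were matched to samples by the numbers in their names.

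The members, gene lists and comparisons were chosen with earlier results of these data known. All 7 members are named in every comparison. Genes of other lists are named up to 6 a list, smallest p first, among those called, or where they define the list. Alternatives covered the pseudocount, the filter, scaling, the variance model, the samples in the fit and each library left out. A block on column numbers and the ratios without each library were added after the data had been seen.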

Additional observations from a re-analysis of the deposited data

Results flagged for a closer look

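In groups of 5, the most extreme library was examined for a gap to its nearest neighbour above 0.71 of the whole range. Independent, normally distributed values pass that mark by chance in about 1 of 20 groups. Of 36 groups examined, 6 passed it. The groups share libraries and hold genes that vary together, and most of the 6 come from 1 library. The number therefore cannot be set against that rate.

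NP vehicle library 6 did so for H2-Aa (26.79 FPKM), H2-Ab1 (38.42 FPKM), Cd74 (62.23 FPKM) and Ciita (0.395 FPKM), each higher than the other 4 libraries, and for H2-Ab1 over H2-Aa (1.434), which was lower. It also held the highest leukocyte sum of NP, 167.6 FPKM, against 17.6 to 65.8 in the other vehicle libraries. NP vehicle library 1, second in that sum, had the lowest H2-Aa of its group.

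NP MDL-800 library 20 did so for H2-Ab1 over H2-Aa (30.71). It had the lowest leukocyte sum of all 20 libraries, 10.8 FPKM, and the lowest H2-Aa, 0.688 FPKM, beside 21.1 FPKM of H2-Ab1.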

How the results depend on the processing

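The 7 class II genes were called lower in NP under all alternatives run, in both treatments, and 0 of 7 were called between treatments or in the difference of effects. In the AF treatment comparison all 7 stayed negative, with H2-Aa between -0.75 and -0.46 as single libraries were left out. In NP these ranges crossed 0: H2-Aa -0.60 to 0.19, H2-Eb1 -0.34 to 0.29, Cd74 -0.47 to 0.34, H2-DMa -0.29 to 0.16, H2-DMb1 -0.01 to 0.25 and Ciita -0.04 to 0.09, with Ciita at -0.00047 without library scaling. So did the difference of effects for Cd74 (-0.02 to 0.80) and H2-DMa (-0.03 to 0.42). Treatment ratios ranged, for H2-Ab1 over H2-Aa, from -0.27 to 0.65 in NP and from 0.07 to 0.15 in AF, where the exact permutation p was 0.0317 without MDL-800 library 28. For H2-DMb1 over H2-DMa they ranged from -0.09 to 0.45 in NP and from -0.10 to 0.08 in AF.

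Over all genes, the NP treatment count was 41, and 7 with no filter on low values, 18 without library scaling, 18 without the variance trend, 4 with all 4 groups in the fit and 2 to 189 with a library left out, 189 without vehicle library 6 and 25 or fewer without any other. The causes were not tested. AF treatment and the difference of effects gave 0 to 1. Quantile normalization moved the split in vehicle mice from 3577 higher and 5550 lower in NP to 6310 and 4194, and under MDL-800 from 4188 and 6102 to 6804 and 4544, with all 7 members still called lower.

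Sample numbers are not shared between groups, but the column names hold a second number that recurs in both tissues, for 5 vehicle and 3 MDL-800 pairs. Deviations of same-numbered libraries correlated at -0.178 to 0.285, and 2 of 8 NP libraries correlated best with their own number, so no pairing was used. With it as a replicate block, 7 of 7 were called in both treatments, and 8783 genes in vehicle mice against 9127 without it. Under MDL-800 the block gave 7858 genes, against 8303 in the same libraries without it.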

Other observations

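Zbtb46, a transcription factor used as a marker of classical dendritic cells, was the 1 marker of that list that was higher in NP. It stood at 34.3, 26.3, 24.2, 22.9 and 21.9 FPKM in NP vehicle libraries 1, 2, 3, 5 and 6, and at 7.90 to 12.8 in AF vehicle libraries, a difference of 1.34 (SE 0.15, limma adjusted p = 4.46e-05). Under MDL-800 the difference was 1.25 (limma adjusted p = 3.85e-06). Flt3, Siglech and Itgax of the same list were lower in NP, by -1.14, -2.15 and -1.87 in vehicle mice, and were tested through AF alone. Library 1, with the highest Zbtb46, had the lowest Cd74 and Ciita of its group.

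Ifng in AF vehicle library 12 was the 1 value above 0.292 FPKM of that gene in 20 libraries. The same library had the highest Cd274 (22.3 FPKM), Cd40 (7.40) and Ctss (294.9) of all 20. For Irf8, at 14.7 FPKM, it lay within the 8.24 to 24.9 of its group, and for Rfx5 and Rfxank, at 7.37 and 6.38 FPKM, it was the lowest of its group. Its leukocyte sum, 651 FPKM, was below those of vehicle libraries 8, 9 (654, a narrow gap) and 13. Its Ciita, 2.13 FPKM, was below that of vehicle library 13 (2.96). Per 100 FPKM of leukocyte genes, library 12 had the highest H2-Aa (51.8), H2-Ab1 (37.9) and H2-Eb1 (30.3) of AF. By this measure its Ciita was highest too, at 0.3273 against 0.3267 in MDL-800 library 29. Its Cd74 (85.6), H2-DMa (2.79) and H2-DMb1 (3.18) were not the highest. The part of Ifng in these values was not tested.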
